A study of Mus musculus with 24 samples.

Results

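The genes described here are solute carriers, the membrane proteins of the SLC families, as named by their Slc symbols on the array. Of 260 such genes, with the glucose transporters Slc2a1 and Slc2a3 left aside, 150 were members because each of the 3 arrays of some condition, of 8, gave a probeset of theirs a signal of 32 or more. Each gene was represented by the probeset of highest mean signal, and 109 members had 1 such probeset only. The other 110 genes were under the minimum. Members just inside it were Slc18a1, with 32.1 on the lowest array of its best condition, Slc38a3 with 32.3 and Slc35g3 with 32.4, and genes just outside were Slc35c2 with 31.6 and Slc26a4 with 31.0. The minimum was met in all 8 conditions by 81 members and in 1 condition only by 14, so members of the second kind entered through the condition in which they were high.

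Solute carriers move small molecules across membranes by following or coupling to gradients, without using ATP themselves, and each family carries its own class of cargo. In T cells they bring in the glutamine, large neutral amino acids and glucose that growth after stimulation depends on, let lactate out with protons, move zinc, iron and copper, and exchange metabolites between the cytosol and mitochondria. By cargo the members comprised 30 mitochondrial carriers, 23 carriers of metal ions, 18 of organic ions, peptides and lipids, 16 of nucleotide sugars, 12 of sugars, 11 of sodium, potassium, chloride, calcium or protons, 11 of amino acids, 9 of vitamins, choline and heme, 6 of neurotransmitters, creatine and related amino acids, 4 of phosphate, 4 of nucleosides and nucleobases, and 3 of monocarboxylates. A further 3 carry an Slc symbol but are adaptors, not carriers, among them Slc9a3r1, a scaffold of sodium-proton exchangers. The mitochondrial carriers are those of the SLC25 family, which includes the peroxisomal Slc25a17. The cargo classes are background knowledge and not a measurement of transport.

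The mRNA came from thymocytes of female mice, 6 to 8 weeks old, of the NOD strain with the H2k haplotype and of C57BL10.H2k (B10) mice, all carrying the 3A9 TCR, which recognizes a hen egg lysozyme peptide on I-Ak, either alone (TCR) or with insHEL, a lysozyme transgene driven by the insulin promoter (Dbl). Negatively selecting cells (S-) were CD4+CD8lowCD69+ cells with high clonotype staining from Dbl mice, positively selecting cells (S+) had the same surface markers and came from TCR mice, and pre-selection cells (PreS) were CD4+CD8+CD69- cells with low TCR from either kind of mouse. Each strain had 3 S- pools, 3 S+ pools, 3 PreS Dbl pools and 3 PreS TCR pools, the last 2 groups merged as 6 PreS arrays, for 24 arrays in all. A p-value here measures the spread between such pools, and the small number of arrays limits its precision. S- cells bear the sorted surface phenotype of cells still present in the thymus, so cells already deleted were not measured. The signal is the authors' MAS 5.0 value on a linear scale, and since each array was scaled to a common level, it gives an mRNA's share and cannot tell less of it per cell from fewer cells that have it. Levels of different probesets are not comparable, and only differences of 1 probeset between groups are given.

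Over the arrays, log2 signals of replicates correlated with Pearson's r between 0.843 and 0.967 (median 0.931). The summed signal of 11 T-lineage markers, including Cd3e, Lck and Thy1, ran from 16838 to 27371. The 3' to 5' ratio of the Gapdh control, a measure of RNA length, was 57.2 and 40.9 on NOD S+ replicates 1 and 2, 29.4 on B10 S+ replicate 1, 28.9 on NOD PreS Dbl replicate 1 and 2.19 to 16.6 on the other arrays. Among macrophage markers, 4 of 6 kept (Csf1r, C1qb, C1qc and Adgre1) were higher in NOD S+ than in NOD PreS cells, with summed signals of 597 to 1550 in NOD S+ and 152 to 382 in NOD PreS. Among granulocyte markers, 3 of 6 kept (Ngp, S100a8 and S100a9) were lower in B10 S+ than in B10 PreS cells, with sums of 148 to 307 in B10 S+ and 279 to 3752 in B10 PreS. Between the PreS cells of Dbl and of TCR mice no member differed, in NOD (percent of all probesets called 0.0312) or in B10 (0), by limma at an adjusted p under 0.05, although 11 and 4 members had an unadjusted p under 0.05. The share of all probesets at that unadjusted p was not counted.

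The first question was how these carriers differ between selecting and PreS thymocytes. A member was called where its limma p stayed under 0.05 once adjusted (Benjamini-Hochberg) for all 12838 probesets kept. In NOD, 12 members were higher and 3 lower in S- than in PreS cells, where 5.51% and 5.68% of all probesets were called higher and lower. NOD S+ cells had 11 members higher and 3 lower than PreS cells, against 6.13% and 8.66% of all probesets. In B10, S- cells had 6 members higher and 9 lower than PreS cells (4.42% and 6.8% of all probesets), and S+ cells had 15 higher and 10 lower (7.37% and 9.44%). As shares of the 150 members these were 8% higher and 2% lower in NOD S-, 7.33% and 2% in NOD S+, 4% and 6% in B10 S-, and 10% and 6.67% in B10 S+. S- and S+ cells of a strain were compared with the same PreS arrays, so their calls are not independent.

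Over the whole set, members above 0 outnumbered those below 0 in all 4 comparisons. The median member stood at a log2 difference of 0.24 in NOD S- and 0.33 in NOD S+ against PreS, with all probesets at 0.02 in both, and at 0.10 in B10 S- and 0.15 in B10 S+, with all probesets at 0.01 and 0.04. Above 0 were 103 and 113 of the 150 members in NOD S- and S+ and 91 and 98 in B10 S- and S+. Without standardization, with MAS 5.0 scaling alone, the median of all probesets itself shifted to 0.18 in NOD S-, 0.16 in NOD S+, 0.09 in B10 S- and 0.11 in B10 S+. Called members then split as 16 higher and 2 lower in NOD S-, 23 and 2 in NOD S+, 7 and 7 in B10 S-, and 18 and 7 in B10 S+. The share of all probesets called under this scaling was not counted, so these splits do not set the members apart. The count in NOD S+ is the least steady of these, with 3 members called when the 4 arrays of highest 3' to 5' ratio were left out and none with hybridization day as a block, a setting that also left none in NOD S-, 1 in B10 S- and 12 in B10 S+. Few arrays of a comparison share a day, and none do for NOD S- against PreS. A call lost with that block therefore cannot be told from a loss of precision. Macrophage marker sums were higher on the same NOD S+ arrays, and granulocyte marker sums lower on B10 S+ arrays. In B10 S- cells macrophage sums ran from 310 to 1631, with 243 to 805 in B10 PreS cells and no such marker called. Of 4 B cell markers kept, only Cd79b was called, lower in all 4 comparisons with PreS. Of 4 epithelial markers kept, Cldn4 was lower in NOD S-, B10 S- and B10 S+, and Epcam in B10 S+. The part of these cells in the members' values was not tested. Slc11a1, a metal carrier of the phagosome of macrophages and itself a member, had 40.5, 73.3 and 43.7 in NOD S+ cells and 26.0 to 43.6 in NOD PreS cells (log2 difference 0.37, adjusted p = 0.384), and was not called. Members described below whose group means stayed under a signal of 100, among them Slc22a2, Slc43a3, Slc31a1, Slc5a9, Slc39a8 and Slc45a3 against PreS, were singled out after their values were seen.

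**Figure D1:**
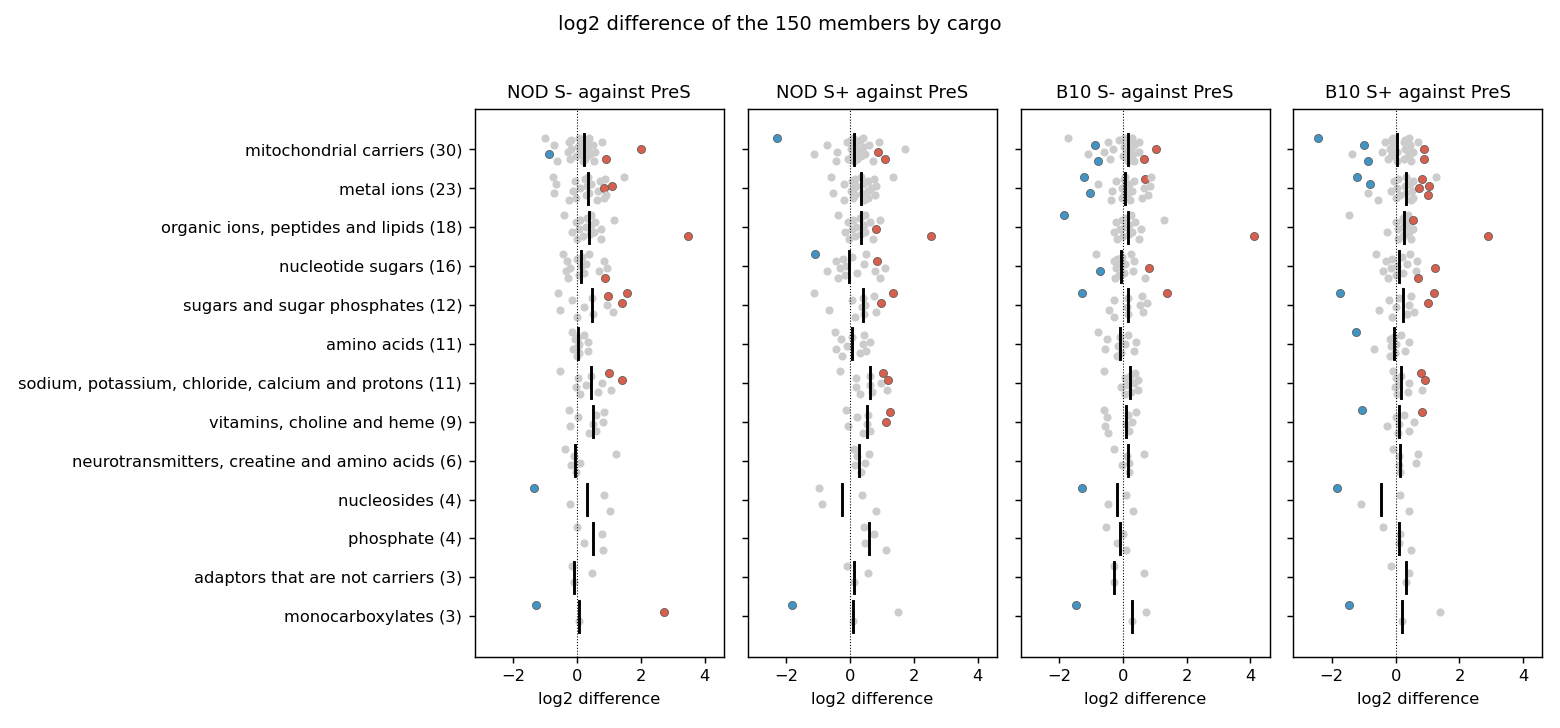
Log2 difference of each of the 150 members (x axis), grouped by cargo (y axis, number of members in brackets), in 4 panels for S- and S+ against PreS cells of NOD and B10. Red and blue points are members called higher and lower by limma at an adjusted p under 0.05, grey points are not called, and black bars are class medians. Among monocarboxylate carriers 1 point is called lower in each panel, and among amino acid carriers no point is called except 1 in B10 S+.

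Among the monocarboxylate carriers, Slc16a1 (MCT1), which moves lactate and pyruvate together with protons, was lower in selecting cells of both strains. Its signal was 346.9, 251.9 and 287.3 in NOD S- cells and 165.7, 151.5 and 341.8 in NOD S+ cells, with 390.5, 726 and 930.3 as the lowest, median and highest of 6 NOD PreS arrays. In B10 it was 202.8, 182.3 and 227.2 in S- cells and 224.4, 142.2 and 260.4 in S+ cells, with 322.4, 663.7 and 760.3 as the lowest, median and highest in PreS cells. No selecting array reached any PreS array of its strain. The log2 differences were -1.28 (SE 0.31, limma adjusted p = 0.0191) in NOD S-, -1.80 (SE 0.31, adjusted p = 0.00307) in NOD S+, -1.47 (SE 0.31, adjusted p = 0.00667) in B10 S- and -1.46 (SE 0.31, adjusted p = 0.00487) in B10 S+, a level 2.43-fold to 3.48-fold lower. The B10 S+ call held in every alternative analysis, whereas the calls in NOD S- and S+ and in B10 S- were lost with hybridization day as a block (adjusted p = 1.0, 0.62 and 0.208), with the direction kept. That block has little precision, since few arrays of a comparison share a day. The NOD S- call was lost in 4 of 24 alternatives, 2 of them with 1 array left out. Without the 4 arrays of highest 3' to 5' ratio the NOD S+ difference was -1.01 (adjusted p = 0.242).

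Slc16a6, a relative of Slc16a1 in the same family, went the other way in NOD S- cells. Its signal was 156.1, 115.0 and 225.1 in NOD S- cells, 38.3, 63.7 and 144.0 in NOD S+ cells, and 9.2, 21.9 and 40.6 as the lowest, median and highest in NOD PreS cells, so that every NOD S- array was above every PreS array. The NOD S- difference was 2.74 (SE 0.49, limma adjusted p = 0.00282) and that of NOD S+ 1.52 (SE 0.49, adjusted p = 0.0522). Slc16a6 reached 32 on every array of the 4 groups of selecting cells only, the groups through which it became a member. Its NOD PreS signals lay near or under that minimum, and over the alternatives the NOD S- difference ran from 1.65 to 2.94. In B10 the signal was 71.2, 132.1 and 124.0 in S- cells (log2 0.73, adjusted p = 0.368) and 115.5, 227.6 and 157.8 in S+ cells (1.38, adjusted p = 0.0631), against 24.5 to 127.1 in PreS cells, so that both groups overlapped PreS and Slc16a6 was not called there.

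The 250 bases upstream of the transcription start of Slc16a1 are shown because this gene was lower in every comparison of selecting with PreS cells. The sequence is RefSeq's for the mouse reference assembly GRCm38.p6, at chr3:104638414-104638663 on the plus strand, with motifs in capitals. These are an E-box, CACGTG, which proteins of the Myc family can bind, and a GC box, GGGCGG.
Slc16a1: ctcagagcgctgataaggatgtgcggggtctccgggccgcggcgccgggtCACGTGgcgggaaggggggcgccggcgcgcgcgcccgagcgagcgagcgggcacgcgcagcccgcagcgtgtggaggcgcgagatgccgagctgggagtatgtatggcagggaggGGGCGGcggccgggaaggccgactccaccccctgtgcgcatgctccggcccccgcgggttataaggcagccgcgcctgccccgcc
Besides these, the CCAAT box, the ETS motif CGGAAG and the TATA box, read as TATAAA, were searched on both strands in the same 250 bases of 32851 promoter entries. CACGTG was found in 12.5% of 160 entries of 113 members and in 6.0% of all entries, and GGGCGG in 60.6% and 32.7%. CCAAT stood in 33.1% of the members' entries and in 33.8% of all entries, CGGAAG in 19.4% and 13.6%, and TATAAA in 3.8% and 12.4%. The members had passed the signal minimum, while the 32851 entries were not filtered by signal. The shares therefore do not set carriers apart from other genes with signal in these cells. These are descriptions of letters in a window, without a test.

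Among the 4 carriers of nucleosides and nucleobases, 1 was called lower in both strains. Slc43a3, a carrier of purine nucleobases, had a signal of 33.9, 21.9 and 42.2 in NOD S- cells and 46.9, 52.7 and 38.0 in NOD S+ cells, with 37.2, 74.0 and 131.6 as the lowest, median and highest in NOD PreS cells. In B10 it had 41.4, 45.8 and 36.0 in S- cells and 30, 23.9 and 25.4 in S+ cells, with 62.7, 92.8 and 108.0 in PreS cells. B10 groups did not overlap, and in NOD S- cells 1 array was above the lowest PreS array. Slc43a3 was called lower in NOD S- (log2 -1.36, SE 0.32, limma adjusted p = 0.0164), B10 S- (-1.27, SE 0.20, adjusted p = 0.000937) and B10 S+ (-1.85, SE 0.20, adjusted p = 2.3e-05), and it stood at -0.86 (adjusted p = 0.0905) in NOD S+. The B10 S+ call held in every alternative. The main equilibrative nucleoside transporter, Slc29a1, was not called in any comparison, with a log2 difference of -1.07 (adjusted p = 0.0813) in B10 S+ and -0.97 (adjusted p = 0.243) in NOD S+.

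**Figure D2:**
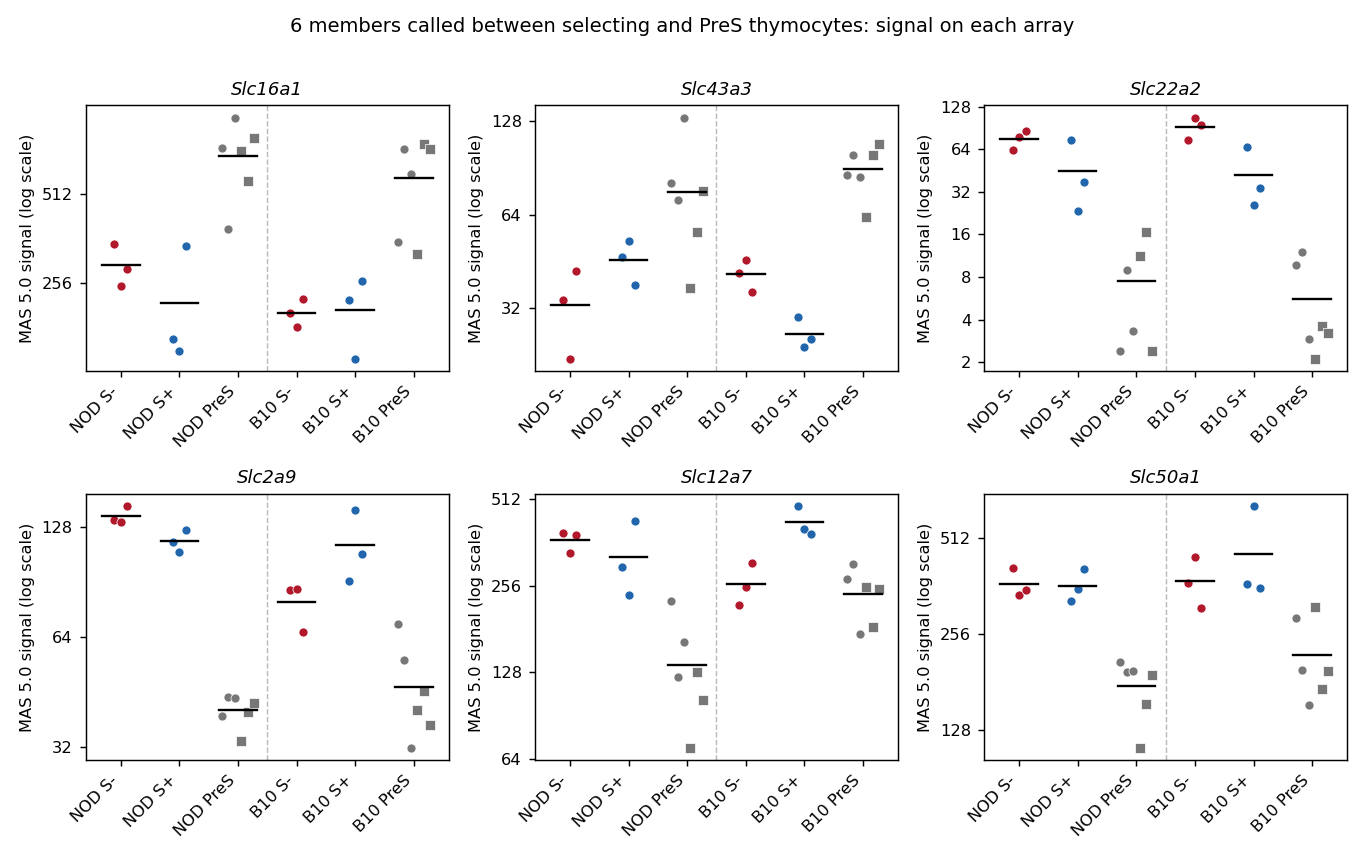
MAS 5.0 signal (y axis, log scale) on each array for Slc16a1, Slc43a3, Slc22a2, Slc2a9, Slc12a7 and Slc50a1 in S-, S+ and PreS cells of NOD (left of the dashed line) and B10 (right). Circles are S-, S+ and PreS TCR arrays, squares are PreS Dbl arrays, and black bars are group means. Slc22a2 is at most 16.7 on every PreS array and at least 23.3 on every selecting array.

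Among the carriers of organic ions, peptides and lipids, Slc22a2 (OCT2), an organic cation transporter known for drug and monoamine uptake in the kidney, was higher in selecting cells of both strains. Its signal was 63.8, 78.4 and 86.0 in NOD S- cells and 75.1, 23.3 and 37.5 in NOD S+ cells, with 2.4, 6.1 and 16.7 as the lowest, median and highest in NOD PreS cells. B10 S- cells had 74.6, 107.5 and 95.1 and S+ cells 66.1, 25.9 and 34.0, with 2.1, 3.4 and 12 in PreS cells. Every selecting array was above every PreS array, and the 3 S- arrays of B10 were above its 3 S+ arrays. The log2 differences were 3.49 (SE 0.60, limma adjusted p = 0.00225) in NOD S-, 2.54 (SE 0.60, adjusted p = 0.0142) in NOD S+, 4.11 (SE 0.45, adjusted p = 6.98e-05) in B10 S- and 2.90 (SE 0.45, adjusted p = 0.000505) in B10 S+. It reached 32 on all arrays of NOD S- and B10 S- only, so it became a member through groups in which it was high. PreS signals of Slc22a2 lay near background, so neither the size of its change nor its rank among members is settled. With signals under 16 set to 16 the differences were 2.08, 1.18, 2.43 and 1.22 in the same order, and all stayed called. Both B10 calls held in every alternative. With hybridization day as a block the calls of NOD S- (adjusted p = 1.0) and NOD S+ (adjusted p = 0.875) were lost, and that of NOD S+ was lost also without replicate 1 or without the 4 arrays of highest 3' to 5' ratio (adjusted p = 0.141).

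For Slc22a2 the upstream 250 bases lie at chr17:12583939-12584188 on the plus strand (RefSeq, GRCm38.p6), and are shown because the gene was called higher in all 4 comparisons with PreS. The capitals mark CCAAT boxes, read on the opposite strand as ATTGG.
Slc22a2: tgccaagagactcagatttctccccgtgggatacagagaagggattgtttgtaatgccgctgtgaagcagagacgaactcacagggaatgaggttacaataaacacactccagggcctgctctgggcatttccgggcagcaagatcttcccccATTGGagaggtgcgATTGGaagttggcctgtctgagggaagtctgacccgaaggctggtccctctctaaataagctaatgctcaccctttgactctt
Neither CACGTG nor GGGCGG occurs in this window.

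In the same class were fatty acid transport proteins. Slc27a1 was higher in NOD S+ (log2 0.83, SE 0.25, limma adjusted p = 0.043, means 50.4 in S+ and 24.2 in PreS) and Slc27a4 in B10 S+ (0.54, SE 0.17, adjusted p = 0.0468, means 111.6 in S+ and 72.5 in PreS). These calls were lost in 12 of 23 and in 16 of 24 alternatives. Slc27a1 reached 32 on every array of NOD S- and NOD S+ only, the groups through which it became a member. Slc22a12, a urate exchanger of the kidney, was lower in B10 S- (log2 -1.85, SE 0.49, adjusted p = 0.0254), with means of 15.0 in S- and 43.0 in PreS cells. Of the B10 conditions it reached 32 on every array in PreS Dbl only, and its B10 S- signals (25.4, 7.3 and 12.2) were below that minimum. A second Slc22a12 probeset stood at -0.02 (adjusted p = 0.984), and the call was lost in 6 of 23 alternatives.

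Of 12 carriers of sugars, 3 were called higher in NOD S-, 2 in NOD S+, 1 in B10 S- and 2 in B10 S+, and 1 was called lower in each B10 comparison. Slc2a9 (GLUT9), which transports urate as well as hexoses, had 133.6, 132.0 and 145.5 in NOD S- cells and 116.4, 109.2 and 125.1 in NOD S+ cells, against 33.3, 41.1 and 44.0 as the lowest, median and highest in NOD PreS cells. In B10 it had 85.8, 86.7 and 66.2 in S- cells and 91.0, 142.5 and 108.2 in S+ cells, against 31.9, 43.0 and 69.4 in PreS cells. Only the B10 S- and PreS arrays overlapped. Differences on the log2 scale were 1.58 (SE 0.18, limma adjusted p = 0.000118) in NOD S-, 1.35 (SE 0.18, adjusted p = 0.00058) in NOD S+, 0.65 (SE 0.24, adjusted p = 0.108) in B10 S- and 1.20 (SE 0.24, adjusted p = 0.00322) in B10 S+. The NOD calls of Slc2a9 were lost with day as a block (adjusted p = 1.0 and 0.689) and the B10 S+ call with the PreS arrays of TCR mice alone.

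Slc50a1 (SWEET1), a sugar carrier of the Golgi, had 413.2, 340.0 and 353.0 in NOD S- cells and 326.3, 353.9 and 409.2 in NOD S+ cells, against 112.6, 193.0 and 209.3 as the lowest, median and highest in NOD PreS cells. B10 S- cells had 370.8, 448.5 and 308.6 and S+ cells 368.7, 644.1 and 358.5, against 153.9, 197 and 310.9 in PreS cells. Only B10 S- arrays overlapped PreS arrays, by 1 array. The log2 difference was 0.96 (SE 0.21, limma adjusted p = 0.0112) in NOD S-, 0.98 (SE 0.21, adjusted p = 0.00956) in NOD S+ and 1.01 (SE 0.26, adjusted p = 0.0172) in B10 S+, and 0.75 (SE 0.26, adjusted p = 0.0917) in B10 S-. Slc37a1, a glucose-6-phosphate carrier of the endoplasmic reticulum, was higher in NOD S- (143.2, 85.6 and 114.5, against 14.4 to 53.3 in PreS, log2 1.41, SE 0.40, adjusted p = 0.0393), a call lost in 10 alternatives. The sodium-sugar cotransporter Slc5a9 was lower in B10 S- (-1.26, adjusted p = 0.00909) and B10 S+ (-1.75, adjusted p = 0.000581), with 15.4 to 21.6 in S-, 8.4 to 21.8 in S+ and 25.6 to 50.4 in B10 PreS cells. It reached 32 on every array of B10 PreS Dbl only, the group through which it became a member, and its S- and S+ signals were below that minimum.

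Slc45a3 was the only member called between S- and S+ cells of either strain. It encodes a sugar transporter of the SLC45 family that is known as a prostate antigen. Its signal was 80.4, 63.6 and 92.6 in B10 S- cells, 35.2, 28.0 and 20.1 in B10 S+ cells, and 14.9, 30.1 and 37.3 as the lowest, median and highest in B10 PreS cells. Slc45a3 reached 32 on every array of NOD S- and B10 S- only, the groups through which it became a member. Every B10 S- array was above every S+ and PreS array, with a log2 difference of 1.49 (SE 0.33, limma adjusted p = 0.0392) against S+ and 1.38 (SE 0.29, adjusted p = 0.00602) against PreS. In NOD the signal was 46.9, 35.3 and 49.8 in S- cells and 32.7, 27.7 and 23.6 in S+ cells, without overlap but at log2 0.71 (SE 0.69, adjusted p = 0.829). The call between B10 S- and S+ was lost in 11 alternatives, among them the replicate block, the methods' t-test and the loss of any 1 of the 3 B10 S- arrays.

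The comparison of S- with S+ cells, which sets cells meeting the insulin-promoter antigen against cells of the same phenotype that do not, held 1 call higher (1.29% of all probesets) and none lower (0.374%) in B10. At an unadjusted p under 0.05 there were 18 members, 5 higher and 13 lower, and the methods' t-test called none. For all probesets the share at that unadjusted p was not counted, in B10 or in NOD. In NOD no member and no probeset (0% of 12838) was called, with 7 members at an unadjusted p under 0.05, none by the methods' t-test and 16 with array weights. B10 members below the threshold with low p values were Slc25a28, a mitochondrial iron importer (log2 -0.76, adjusted p = 0.123), Slc25a23, an ATP-Mg and phosphate exchanger of mitochondria (-1.36, adjusted p = 0.167), Slc12a7 (-0.74, adjusted p = 0.186) and Slc20a1, a phosphate importer and retrovirus receptor (-0.67, adjusted p = 0.243). All of these had lower means in S- than in S+ cells, as did 96 of the 150 members in B10 and 79 in NOD. Of the higher members only Slc45a3 is named. The median member stood at -0.08 in B10 and -0.02 in NOD, with all probesets at -0.01 and 0.04. Slc44a2 was not called by its main probeset (-0.48, adjusted p = 0.67). By another probeset it was lower in B10 S- cells (means 434.1 in S- and 1110 in S+, log2 -1.37, adjusted p = 0.0244). By that probeset it was lower also than in B10 PreS cells (-0.80, adjusted p = 0.0454), where the main one stood at 0.11. The remaining kept probeset of Slc44a2 stood at -0.03 (adjusted p = 0.995) against S+ and at 0.4 (adjusted p = 0.676) against PreS. Both calls of Slc44a2 in B10 S- cells thus rest on 1 probeset.

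Carriers of sodium, potassium, chloride, calcium and protons included 2 of 11 members called higher in NOD S-, NOD S+ and B10 S+, and none in B10 S-. Slc12a7 (KCC4), which lets potassium and chloride out together and regulates cell volume, had 389.3, 333.7 and 385.3 in NOD S- cells and 297.5, 238.2 and 429.2 in NOD S+ cells, with 69.7, 125.5 and 225.8 as the lowest, median and highest in NOD PreS cells. In B10 the values were 219.3, 252.2 and 307.7 in S- cells and 483.2, 404.1 and 387.2 in S+ cells, with 174.3, 252 and 303.8 in PreS cells. Both NOD groups and the B10 S+ group were above their PreS arrays without overlap, while the B10 S- arrays lay within the PreS range but for 1 array. Log2 differences of Slc12a7 were 1.41 (SE 0.30, limma adjusted p = 0.00967) in NOD S-, 1.20 (SE 0.30, adjusted p = 0.0201) in NOD S+, 0.07 (SE 0.21, adjusted p = 0.875) in B10 S- and 0.81 (SE 0.21, adjusted p = 0.015) in B10 S+. The strain difference in S- against PreS itself was 1.34 (SE 0.37, 95% confidence interval 0.58 to 2.09, adjusted p = 0.174), so it was not called. A second Slc12a7 probeset stood at 0.68 (adjusted p = 0.0906) in NOD S-, 1.08 (adjusted p = 0.0107) in NOD S+ and 0.44 (adjusted p = 0.274) in B10 S+.

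Slc26a6, an exchanger of chloride with oxalate, bicarbonate and other anions, was called higher in 3 of the 4 comparisons. NOD S- cells had 127.4, 89.7 and 91.3, NOD S+ cells 96.7, 102.2 and 116.7, and NOD PreS cells 26.4 to 57.5. B10 S+ cells had 124.6, 99.9 and 83.0 and B10 PreS cells 37.9 to 62.3. These arrays did not overlap, and limma gave log2 differences of 0.99 for NOD S- (SE 0.24, adjusted p = 0.0194), 1.03 for NOD S+ (SE 0.24, adjusted p = 0.0149) and 0.92 for B10 S+ (SE 0.20, adjusted p = 0.0056), with 0.36 (adjusted p = 0.287) for B10 S-.

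The mitochondrial carrier family mostly exchanges metabolites across the inner membrane. Of its 30 members, 2 were called higher and 1 lower in NOD S-, 2 and 1 in NOD S+, 2 and 2 in B10 S-, and 2 and 3 in B10 S+, the 1 lower in NOD S+ being the peroxisomal Slc25a17. Slc25a45, a member of this family, was higher in all 4: 468.7, 385.1 and 438.1 in NOD S- and 481.4, 449.5 and 455.6 in NOD S+, against 175.7 to 256.2 in NOD PreS cells. B10 S- cells had 330.3, 388.5 and 455.4 and S+ cells 476.2, 480.2 and 393.0, against 208.6 to 278.9 in B10 PreS cells. No group of selecting cells overlapped its PreS arrays, and limma gave log2 differences of 0.92 for NOD S- (adjusted p = 0.00967), 1.09 for NOD S+ (adjusted p = 0.00394), 0.66 for B10 S- (adjusted p = 0.0237) and 0.88 for B10 S+ (adjusted p = 0.0028). Slc25a36, which carries pyrimidine nucleotides, was higher in B10 S- (365.3 to 425.8 against 150 to 263.4 in PreS, log2 1.05, SE 0.21, adjusted p = 0.00455) and in B10 S+ (331.8 to 411.1, log2 0.89, SE 0.21, adjusted p = 0.00899).

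Some mitochondrial carriers of amino and dicarboxylic acids were lower. The dicarboxylate carrier Slc25a10 had 71.0, 41.3 and 55.5 in NOD S- cells against 71.4 to 124.6 in NOD PreS cells (log2 -0.87, SE 0.24, limma adjusted p = 0.0344), and 68.8 to 74.0 in B10 S- and 54.9 to 71.7 in B10 S+ cells against 91.6 to 156.1 in B10 PreS cells (-0.76, adjusted p = 0.0242, and -0.87, adjusted p = 0.0074). The ornithine carrier Slc25a15 had 81.7 to 98.1 in B10 S- and 71.3 to 95.6 in B10 S+ cells against 131.7 to 191.5 in B10 PreS cells (-0.87, adjusted p = 0.00734, and -0.99, adjusted p = 0.0021). The glutamate carrier Slc25a22 went the other way in NOD S- cells, with 296.7, 192.9 and 241.8 against 10.7 to 117.4 in NOD PreS cells (log2 2.00, SE 0.56, adjusted p = 0.0373), a call lost in 10 alternatives. The ADP and ATP carriers Slc25a4 (719.0 to 1545.7 over the 24 arrays) and Slc25a5 (2644.9 to 4416.6) and the phosphate carrier Slc25a3 (3001.0 to 4795.8) were not called in any comparison, nor was the scaffold Slc9a3r1 (1037.3 to 2934.9). The aspartate-glutamate carrier Slc25a13 was called lower in B10 S+ (adjusted p = 0.0109), with 5.5 to 16.5 in S+ and 28.5 to 54.3 in PreS cells, and since the S+ signals were below the minimum its log2 difference ran from -2.91 to -1.40 over the alternatives. The same held for the peroxisomal carrier Slc25a17 in NOD S+ (adjusted p = 0.02), with overlapping arrays of 4.3 to 28.1 in S+ and 19.6 to 64.5 in PreS cells, differences of -3.16 to -0.37 and a call lost in 8 of 23 alternatives. Slc25a13 reached 32 on every array of PreS conditions only, and Slc25a17 on those of B10 PreS Dbl only, the groups through which they became members. Also called was the coenzyme A carrier Slc25a42, higher in NOD S+ (78.9 to 91.3 against 32.8 to 47.8 in PreS, log2 0.87, adjusted p = 0.0176).

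Of 16 transporters of nucleotide sugars and related donors, which supply the Golgi for glycosylation and sulfation, 1 was called higher in NOD S-, 1 higher and 1 lower in NOD S+, 1 and 1 in B10 S-, and 2 higher in B10 S+. Slc35b3, a carrier of the sulfate donor PAPS, had 351.2, 364.7 and 440.6 in NOD S- cells and 405.5, 320.8 and 370.0 in NOD S+ cells against 161.0 to 249.9 in NOD PreS cells, and 278.0, 236.8 and 265.4 in B10 S- and 372.7, 422.0 and 320.2 in B10 S+ cells against 105.5 to 211.9 in B10 PreS cells. The 4 groups of selecting cells did not overlap their PreS arrays. Slc35b3 was called in NOD S- (log2 0.88, SE 0.20, limma adjusted p = 0.0146), NOD S+ (0.85, SE 0.20, adjusted p = 0.0153) and B10 S+ (1.23, SE 0.22, adjusted p = 0.00118), and stood at 0.70 (SE 0.22, adjusted p = 0.0531) in B10 S-. The CMP-sialic acid carrier Slc35a1 was higher in B10 S- (log2 0.81, adjusted p = 0.0317) and S+ (0.70, adjusted p = 0.0455), with 224.1 to 392.2 and 236.0 to 350.1 against 148.7 to 207.2 in B10 PreS cells, calls lost in 9 and 12 of 24 alternatives. Slc35e1 was lower in B10 S- (-0.71, adjusted p = 0.0415, means 116.3 in S- and 180.8 in PreS), a call lost in 14 of 24 alternatives, and its second probeset stood at 0.56 (adjusted p = 0.295), the other way.

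Among 23 carriers of metal ions, 2 were called higher in NOD S- and none in NOD S+, 1 higher and 2 lower in B10 S-, and 4 higher and 2 lower in B10 S+, with 19 of 23 above 0 in NOD S+. Slc39a11, a zinc importer of the ZIP family, was higher in NOD S- (169.8 to 231.2 against 62.0 to 127.4 in PreS, log2 0.86, limma adjusted p = 0.0455), in B10 S- (177.4 to 193.4 against 73.7 to 141.9 in PreS, log2 0.71, adjusted p = 0.0453) and in B10 S+ (175.1 to 212.1, log2 0.84, adjusted p = 0.0138). The Slc39a11 call was lost in 14 of 24 alternatives in NOD S-, in 12 in B10 S- and in 3 in B10 S+. Its relative Slc39a14, which takes up zinc, manganese and iron, was higher in NOD S- (193.0, 143.2 and 135.6 against 43.2 to 96 in PreS, log2 1.10, adjusted p = 0.0308) and in B10 S+ (1.00, adjusted p = 0.0244, with arrays that overlapped), and a second probeset stood at -0.19 in NOD S- and -0.14 in B10 S+. Slc31a1 (CTR1), the copper importer, was lower in B10 S- (35.8 to 53.5 against 69.3 to 93.4 in PreS, log2 -1.04, adjusted p = 0.00168) and B10 S+ (31.3 to 43.5, log2 -1.20, adjusted p = 0.000335). A second Slc31a1 probeset stood the other way, at 0.30 in B10 S- (adjusted p = 0.569) and 0.19 in B10 S+ (adjusted p = 0.71), and the mean of both probesets gave -0.37 and -0.50. Slc31a1 was not called in NOD, with -0.71 for S- (adjusted p = 0.0892) and -0.52 for S+ cells (adjusted p = 0.178). In B10 S+ the copper carrier Slc31a2 (log2 0.73, adjusted p = 0.00817) was higher, as was the zinc importer Slc39a4 (1.05, adjusted p = 0.0101), which reached 32 in B10 S+ only and so became a member through the group in which it was high. There Slc39a8, a zinc and manganese importer, was lower (-0.81, adjusted p = 0.0223). The zinc exporter Slc30a1 had differences of 1.34 (adjusted p = 0.16) in NOD S+ and 1.25 (adjusted p = 0.138) in B10 S+, and Slc39a1, a zinc importer, was not called in any comparison.

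Of 9 carriers of vitamins, choline and heme, 2 were called higher in NOD S+, 1 higher and 1 lower in B10 S+, and none in S- cells. Slc44a1, the choline transporter-like protein of the plasma membrane and mitochondria, had 229.8, 267.9 and 226.2 in NOD S+ cells against 72.2 to 171.3 in NOD PreS cells (log2 1.12, SE 0.26, limma adjusted p = 0.0143), and 276.6, 293.4 and 237.7 in B10 S+ cells against 92.2 to 220.1 in B10 PreS cells (0.83, SE 0.25, adjusted p = 0.0343, a call lost in 13 of 24 alternatives). Slc44a2, its relative, had 6155.5, 6675.0 and 3004.5 in NOD S+ cells against 1771.3 to 3229.6 in NOD PreS cells, with replicate 3 inside the PreS range (log2 1.27, SE 0.30, adjusted p = 0.0133). Its call was lost without replicate 1 or 2 of NOD S+, which are the arrays of highest 3' to 5' ratio, and its second probeset gave 0.63 (adjusted p = 0.213). The thiamine transporter Slc19a2 was lower in B10 S+ (-1.05, adjusted p = 0.0474, a call lost in 15 of 24 alternatives), and the folate carrier Slc19a1 was not called.

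Of 11 amino acid carriers, 1 was called in the 4 comparisons with PreS. Slc7a5 (LAT1), which with Slc3a2 imports large neutral amino acids, was lower in B10 S+ (124.5, 40.9 and 70.2 against 84.2 to 290.8 in PreS, log2 -1.25, SE 0.40, limma adjusted p = 0.0483), with overlapping arrays and a call lost in 14 alternatives. Its partner Slc3a2 ran from 194.8 to 554.2 over all arrays and was not called in any comparison, the largest of the 4 differences being 0.36 (adjusted p = 0.439) in NOD S-. The glutamine carriers Slc38a1 (-0.69 in B10 S+, adjusted p = 0.0956) and Slc38a2 (0.50 in NOD S+, adjusted p = 0.318) were not called, and Slc1a5, a further glutamine carrier, lay between -0.26 and -0.03 in the 4 comparisons. Slc7a1, the cationic amino acid transporter, was under the signal minimum, at 16.9 on the lowest array of its best condition.

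**Figure D3:**
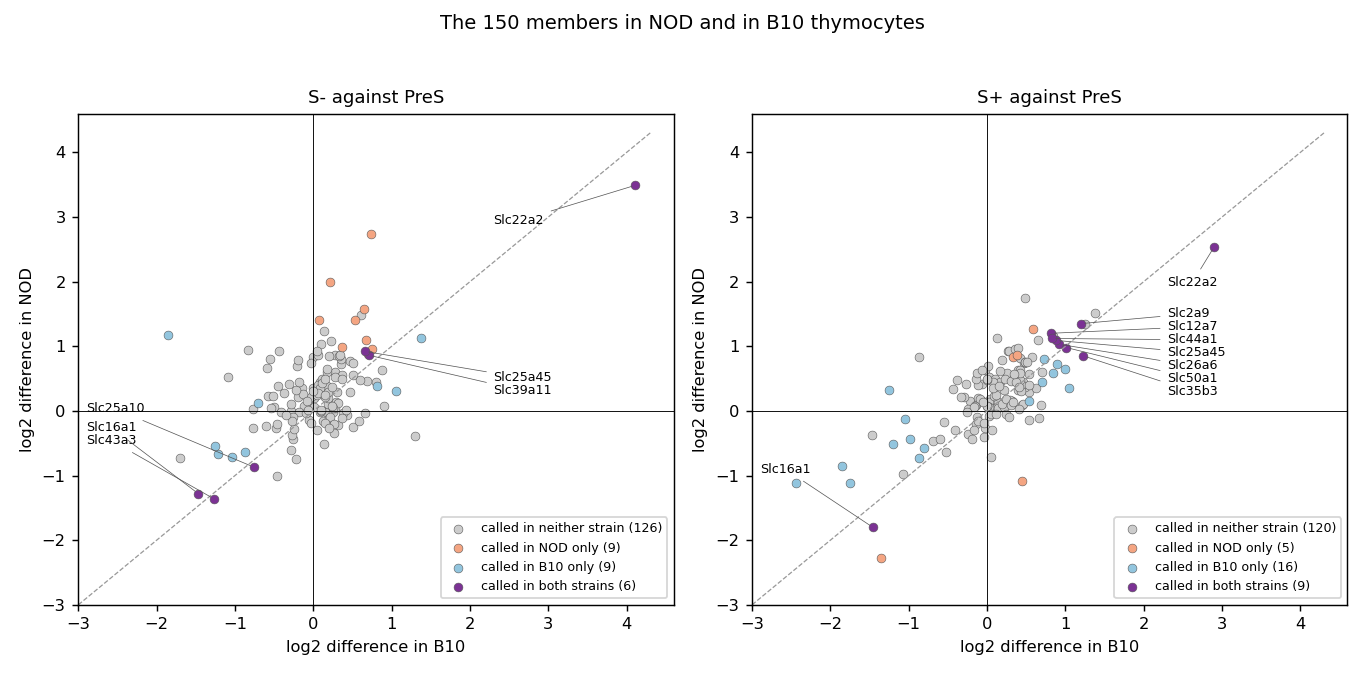
Log2 difference from PreS cells in NOD (y axis) against B10 (x axis) for each of the 150 members, in S- (left) and S+ (right). Colours give the strain in which limma called the member, names mark those called in both, and the dashed line is equality. In S+ cells 9 members were called in both strains and in S- cells 6.

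In S+ cells 8 members were higher in both strains, 72.7% of the 11 called in NOD and 53.3% of the 15 called in B10, namely Slc12a7, Slc22a2, Slc25a45, Slc26a6, Slc2a9, Slc35b3, Slc44a1 and Slc50a1. Slc16a1 was lower in both, which is 33.3% of the falls in NOD and 10% of those in B10. In S- cells Slc22a2, Slc25a45 and Slc39a11 were higher in both (25.0% of the NOD and 50% of the B10 rises), and Slc16a1, Slc25a10 and Slc43a3 lower in both (100% of the NOD and 33.3% of the B10 falls). Over all probesets, rises in both strains were 53.4% of the NOD and 44.4% of the B10 rises in S+ cells and 41.1% and 51.3% in S- cells, and falls in both were 56.1% and 51.5% in S+ and 54.2% and 45.2% in S- cells. Members called in either strain had the same sign in both for 28 of 30 in S+ and 22 of 24 in S- cells, beside 93.7% and 89.4% of all probesets called in either strain. Across the 150 members the differences of the strains correlated with Pearson's r of 0.75 in S+ and 0.54 in S-, beside 0.72 and 0.60 over all probesets, which are descriptions across genes and not across replicates. Calls in 1 strain alone do not show a difference between strains, which was tested directly. By limma in 1 fit of 24 arrays, 0 members were called for the difference in S+ against PreS (0.358% of all probesets called), in S- against PreS (0.101%) or in S- against S+ (0.148%). At an unadjusted p under 0.05 there were 6, 19 and 11 members, and the share of all probesets at that p was not counted. With array weights the 3 counts were 1, 9 and 5.

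The next question was which carriers differ between NOD and B10 cells of the same stage. Among S- cells 2 members were higher and 2 lower in NOD (1.17% and 1.15% of all probesets), among S+ cells none was higher and 4 were lower (1.84% and 1.86%), and among PreS cells 2 were higher and 7 lower (1.65% and 2.48%). With quantile normalization the S- split was 1 higher and 4 lower, and with MAS 5.0 scaling alone the S+ split was 1 higher and 2 lower and the S- split 1 and 2. Shares of all probesets called under these scalings were not counted. The median member stood at 0.09 in S-, 0.07 in S+ and -0.12 in PreS, with all probesets at 0, 0 and -0.01. The 3 comparisons use different arrays, so the same member can be read in each.

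Slc15a2 (PEPT2), a proton-coupled importer of di- and tripeptides, was lower in NOD at every stage, and its difference was the largest of the 150 members in each of the 3 strain comparisons. Its signal in NOD was 9.8, 13.4 and 14.6 in S- cells, 19.4, 18.2 and 16.6 in S+ cells, and 10.7, 13.9 and 16.6 as the lowest, median and highest in PreS cells. In B10 it was 554.5, 801.4 and 516.6 in S- cells, 135.7, 518.9 and 554.5 in S+ cells, and 124.8, 254.8 and 389.9 in PreS cells. The highest NOD array (19.4) was below the lowest B10 array (124.8). Log2 differences between NOD and B10 were -5.74 (SE 0.44, limma adjusted p = 1.33e-08) in S-, -4.40 (SE 0.44, adjusted p = 8.3e-07) in S+ and -4.05 (SE 0.31, adjusted p = 6.91e-09) in PreS, and they held in every alternative, between -5.92 and -3.85. NOD signals were near background, so the sizes depend on how low signals are treated, and with signals under 16 set to 16 they were -5.33, -4.29 and -3.85. A second probeset of Slc15a2 had medians of 17.5 in NOD S- and 11.4 in B10 S- cells, 15.1 in NOD S+ and 14.0 in B10 S+ cells, and 10.4 in NOD PreS and 6.05 in B10 PreS cells, under the minimum in both strains, so the difference rests on 1 probeset. Slc15a2 reached 32 in B10 conditions only and so became a member through that strain. Within B10, Slc15a2 stood at 1.3 (adjusted p = 0.0818) in S- against PreS, and the strain difference in S- against PreS was -1.69 (SE 0.54, 95% confidence interval -2.80 to -0.58, adjusted p = 0.237).

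The upstream 250 bases of Slc15a2 lie at chr16:36784963-36785212 on the minus strand (RefSeq, GRCm38.p6), printed in the direction of transcription and shown as those of the member that most separates the strains. The annotated gene extends to 36785158, so the window overlaps it in part and belongs to a start inside the gene. The sequence is that of the reference assembly and not of either strain. The capitals mark the GC box GGGCGG, which reads CCGCCC on the opposite strand.
Slc15a2: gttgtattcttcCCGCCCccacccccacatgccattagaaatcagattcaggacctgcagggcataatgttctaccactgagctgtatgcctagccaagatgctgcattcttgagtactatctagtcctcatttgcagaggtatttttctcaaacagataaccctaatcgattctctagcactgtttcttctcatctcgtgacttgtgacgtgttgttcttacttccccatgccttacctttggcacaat
None of the other motifs searched occurs in this window.

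Slc35a5, a Golgi protein of the nucleotide sugar transporter family, was also lower in NOD. Its signal was 49.5, 42.7 and 57.1 in NOD S- cells against 147.4, 111.8 and 92.1 in B10 S- cells, and 38.5, 14.4 and 42.4 in NOD S+ cells against 139.4, 101.8 and 126.4 in B10 S+ cells. NOD PreS arrays (41.2 to 64.2) and B10 PreS arrays (65.5 to 101.2) did not overlap either. The log2 differences were -1.25 (SE 0.33, limma adjusted p = 0.0487) in S-, -2.23 (SE 0.33, adjusted p = 0.000233) in S+ and -0.71 (SE 0.24, adjusted p = 0.104) in PreS. The S- call was lost in 8 of 20 alternatives, 5 of them with 1 array left out. Without the 4 arrays of highest 3' to 5' ratio, the S+ difference was -1.48 (adjusted p = 0.0631). Slc35a5 was called lower also in NOD S+ against NOD PreS cells (-1.08, adjusted p = 0.0475), a call lost in 17 alternatives, and the strain difference in S+ against PreS was -1.52 (SE 0.41, 95% confidence interval -2.37 to -0.68, adjusted p = 0.12).

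**Figure D4:**
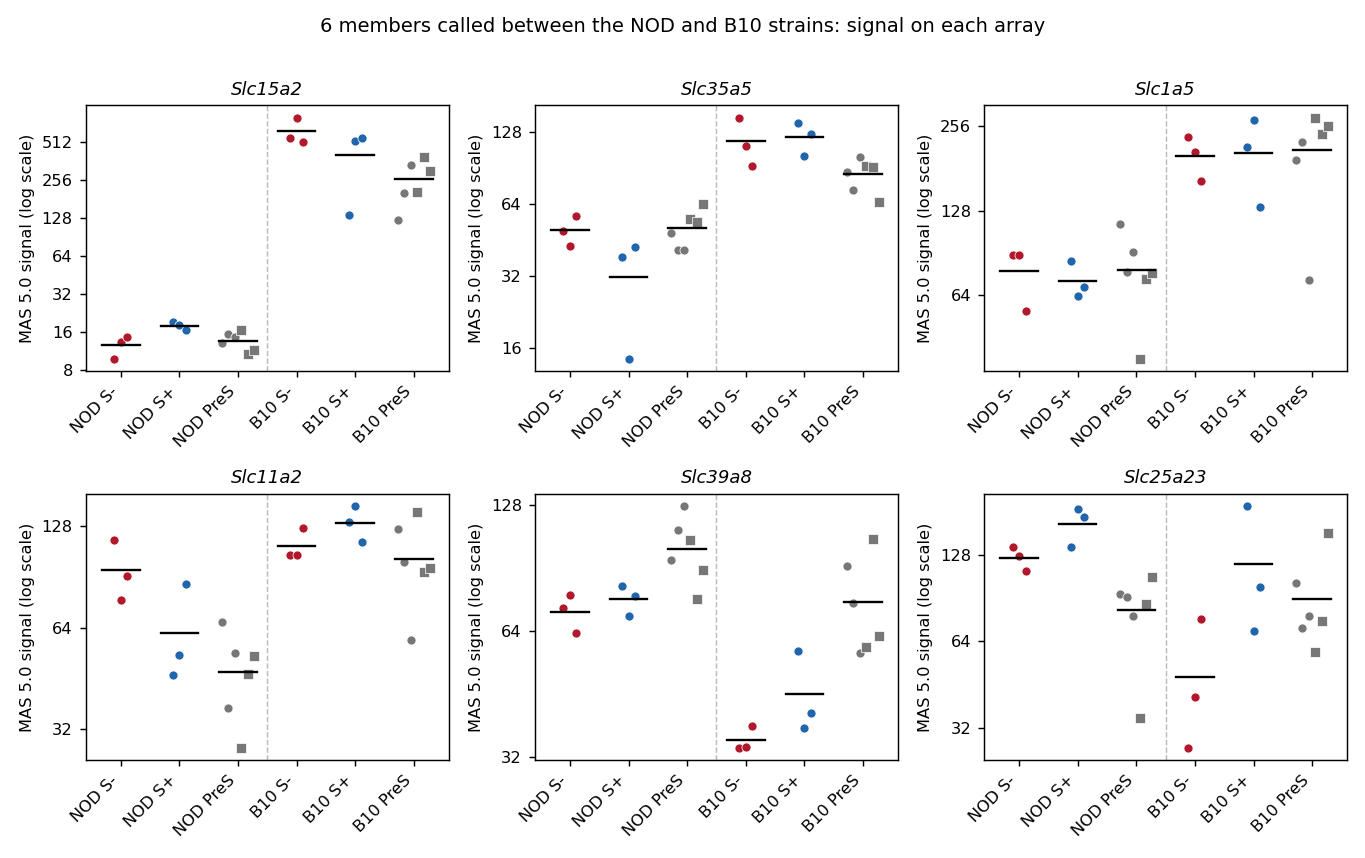
MAS 5.0 signal (y axis, log scale) on each array for Slc15a2, Slc35a5, Slc1a5, Slc11a2, Slc39a8 and Slc25a23 in S-, S+ and PreS cells of NOD (left of the dashed line) and B10 (right). Circles are S-, S+ and PreS TCR arrays, squares are PreS Dbl arrays, and black bars are group means. Slc15a2 is between 9.8 and 19.4 on the NOD arrays and between 124.8 and 801.4 on the B10 arrays.

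Of the amino acid carriers, 2 were called between the strains. Slc1a5 (ASCT2), which imports glutamine and other neutral amino acids, had 89.1, 88.5 and 55.8 in NOD S- cells against 234.9, 206.6 and 163.0 in B10 S- cells, and 84.3, 63.2 and 68.1 in NOD S+ cells against 215.3, 269.6 and 131.4 in B10 S+ cells. In PreS cells it had 37.7, 77.0 and 114.6 as the lowest, median and highest in NOD, against 72.3, 233.1 and 275.4 in B10, where 1 array of TCR mice (72.3) lay among the NOD values and the other 5 were at 193.9 or more. Its log2 difference was -1.42 (SE 0.39, limma adjusted p = 0.0566) in S-, -1.55 (SE 0.39, adjusted p = 0.0262) in S+ and -1.33 (SE 0.28, adjusted p = 0.00445) in PreS, but the S+ call was lost in 10 alternatives and the PreS call with day as a block (adjusted p = 0.12). Slc7a5 was lower in NOD PreS cells only (means 68.8 in NOD and 172.2 in B10, log2 -1.38, SE 0.37, adjusted p = 0.0345), with arrays of 21.4 to 102.7 in NOD and 84.2 to 290.8 in B10 that overlapped and a call lost in 13 alternatives. For S- cells the difference of Slc7a5 was -0.57 (adjusted p = 0.681), for S+ cells it was 0.20 (adjusted p = 0.87), and Slc3a2 stood at -0.36 (adjusted p = 0.297) in PreS.

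Metal carriers went both ways between the strains. Slc11a2 (DMT1), the importer of ferrous iron and other divalent metals, had 46.2, 53.1 and 86.3 in NOD S+ cells against 131.0, 146.1 and 114.7 in B10 S+ cells, and 28.2, 49.6 and 66.6 as the lowest, median and highest in NOD PreS cells against 58.7, 98.2 and 140.7 in B10 PreS cells. S- arrays overlapped, at 116.5, 77.2 and 91.0 in NOD and 104.7, 104.9 and 125.8 in B10. The log2 difference was -1.23 (SE 0.30, limma adjusted p = 0.0201) in S+, -1.07 (SE 0.21, adjusted p = 0.0028) in PreS and -0.27 (adjusted p = 0.753) in S-. In PreS cells 2 other probesets of Slc11a2 were lower too, at -0.94 (adjusted p = 0.0115) and -0.67 (adjusted p = 0.0453). Without the 4 arrays of highest 3' to 5' ratio the S+ difference was -0.64 (adjusted p = 0.834). Slc39a8 (ZIP8), an importer of zinc and manganese, was higher in NOD S- cells, with 72.5, 77.9 and 63.1 against 33.6, 33.8 and 37.9 in B10 S- cells and no overlap (log2 1.02, SE 0.24, adjusted p = 0.019), and it was lower in B10 S- than in B10 PreS cells (-1.22, SE 0.22, adjusted p = 0.00262). The call between the strains was lost in 6 of 20 alternatives, 5 of them with 1 array left out. For S+ and PreS cells the strains differed in Slc39a8 by 0.71 (adjusted p = 0.108) and by 0.47 (adjusted p = 0.136), neither past the threshold.

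Further calls between the strains fell on mitochondrial, sugar and vitamin carriers. Slc25a23 was higher in NOD S- cells (135.8, 126.1 and 112.2, against 27.2, 41.0 and 76.3 in B10 S- cells, log2 1.5, SE 0.40, limma adjusted p = 0.0464), a call lost in 10 alternatives. Slc25a29, which carries basic amino acids into mitochondria, was higher in NOD PreS cells (means 216.7 in NOD and 116.5 in B10, log2 0.88, SE 0.18, adjusted p = 0.00338), as was the UDP-N-acetylglucosamine carrier Slc35a3 (48.0 to 78.3 against 24.2 to 46.0 in B10, log2 0.81, SE 0.17, adjusted p = 0.00438), although its second probeset stood at -0.20 (means 15.87 in NOD and 18.57 in B10) and the mean of both at 0.31. The Slc25a29 arrays overlapped, at 120.5 to 282.6 in NOD and 95.6 to 145.5 in B10. Its other kept probesets were not called (0.46, adjusted p = 0.315, and 1.08, adjusted p = 0.341). Lower in NOD PreS cells were Slc37a2, a glucose-6-phosphate carrier known from macrophages (23.3 to 48.0 against 50.9 to 79.5 in B10, log2 -0.97, SE 0.25, adjusted p = 0.0234), Slc5a6, which imports biotin and pantothenate (means 14.8 in NOD and 34.3 in B10, log2 -1.51, SE 0.41, adjusted p = 0.0376, a call lost in 13 alternatives), and Slc12a7 (69.7 to 225.8 against 174.3 to 303.8 in B10, log2 -0.84, SE 0.21, adjusted p = 0.0209). The Slc12a7 arrays overlapped, and its second probeset stood at -0.37 (adjusted p = 0.325). Slc37a2 reached 32 on every array of B10 conditions only, and Slc5a6 on those of B10 S+ only. Both thus became members through the strain in which they were high. In PreS cells 95 of the 150 members were below 0. Among them were 8 of the 9 vitamin, choline and heme carriers, 9 of 12 sugar carriers and all 4 nucleoside and nucleobase carriers.

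**Figure D5:**
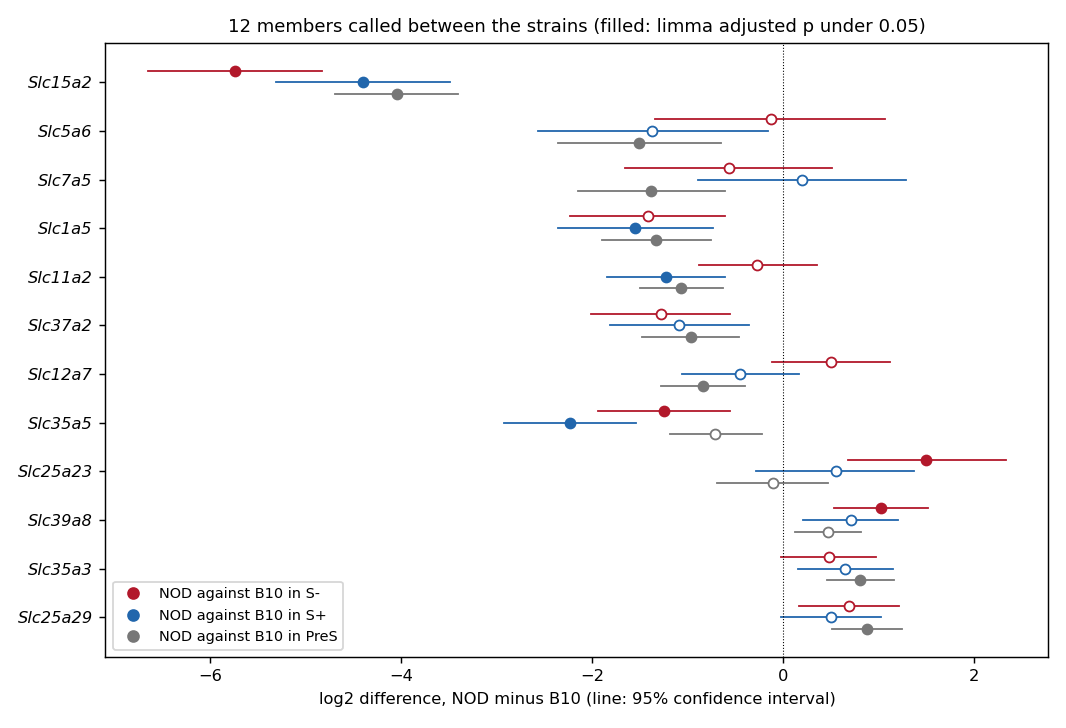
Log2 difference between NOD and B10 (x axis, NOD minus B10) for the 12 members called in any of the 3 strain comparisons, in S- (red), S+ (blue) and PreS (grey) cells, with 95% confidence intervals as lines. Filled points passed a limma adjusted p under 0.05. Slc15a2 lies between -5.74 and -4.05 and the other 11 members between -2.23 and 1.5.

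Other genes of nutrient handling and ion transport were read from lists of 26 and 18 genes, of which 23 and 13 were kept. In the nutrient list, Sesn3, a sestrin that restrains mTORC1, was higher in selecting cells, with means of 728.8 in NOD S- and 520.9 in NOD S+ against 169.1 in NOD PreS cells (log2 2.06 and 1.66, limma adjusted p = 0.000535 and 0.00279), and 550.3 in B10 S- and 630.3 in B10 S+ against 150 in B10 PreS cells (1.89 and 2.08, adjusted p = 0.000408 and 8.57e-05). The glucose transporter Slc2a3 was higher in NOD S- (719.9 against 373.4 in PreS, log2 0.86, adjusted p = 0.0354) and NOD S+ (908.0, log2 1.28, adjusted p = 0.00433). B10 S+ cells had 4 of the list higher (Sesn3, Txnip, Ddit3 and Trib3) and Mycn lower, B10 S- cells had Sesn3 higher and Mycn lower, and NOD S+ cells had Mycn lower. None differed between S- and S+ cells of either strain. Trib3, a pseudokinase induced by amino acid shortage and stress of the endoplasmic reticulum, was higher in NOD than in B10 at every stage, with means of 96.7 in NOD S- and 28.2 in B10 S- (log2 1.79, adjusted p = 0.000573), 126.4 in NOD S+ and 53.1 in B10 S+ (1.22, adjusted p = 0.0152) and 78.4 in NOD PreS and 21.4 in B10 PreS cells (1.88, adjusted p = 1.53e-06). Myc was lower in NOD PreS cells (means 138.7 in NOD and 288.7 in B10, log2 -1.01, adjusted p = 0.0141), and Slc2a3 higher in NOD S- than in B10 S- cells (means 719.9 in NOD and 301.7 in B10, log2 1.26, adjusted p = 0.0238). Of the 13 genes kept from the list of ion pumps, which use ATP where the carriers do not, only Atp11a was called. It was higher in NOD S+ than in NOD PreS cells (means 96.7 in S+ and 33.9 in PreS, log2 1.62, limma adjusted p = 0.0425). Atp11a is a flippase of phospholipids and not itself an ion pump.

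Of the 150 members, 44 (29.3%) were called in at least 1 of the 9 comparisons and 106 in none, beside 30.5% of all 12838 probesets called in at least 1, and Slc12a7, Slc16a1, Slc22a2 and Slc25a45 were called in 4. On every hybridization day that held both groups of a comparison, all its called members kept their direction, for example 25 of 25 on each of 2 days for B10 S+ against PreS, 14 of 14 on 1 day for NOD S+ against PreS and 9 of 9 on each of 3 days for NOD against B10 in PreS cells. These arrays are among those that gave the calls. Where the groups did not overlap, the direction on a day was fixed, so the counts are no separate support for the calls. No day held both groups for NOD S- against PreS or for NOD against B10 in S+ cells.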

How the data were processed

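RNA of sorted thymocyte pools was amplified in 2 rounds and hybridized to Affymetrix mouse expression arrays, and the deposited intensity values are the MAS 5.0 signals of the authors, scaled on each array to a common trimmed mean. Other deposited files hold instrument settings, of which the hybridization day (9 days) was used, unit other. Present calls were not used here. After removal of 64 control probesets from 22690, 33 signals of 0 were set to 0.1, log2 signals were standardized per array, and 12838 probesets were kept, those at 32 or more on every array of some condition. Of 22626 probesets, 20380 had 1 annotated symbol, 691 several and 1555 none. Differences were tested with limma 3.58.1 in R 4.3.3, with 12 arrays per strain for stages and 24 for strains, adjusted over all kept probesets at 0.05, after a test on simulated data. Members named in full were those called, without overlap and with a mean of at least 100, up to 8 a side, with a fixed list of well-known carriers beside them. The members and lists were chosen with earlier results of these data known. Alternatives covered scaling, floor, filter, probeset choice, test, blocks, array weights, RNA length ratio, PreS choice and each replicate left out.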

Additional observations from a re-analysis of the deposited data

Results flagged for a closer look

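In 110 groups of 6 PreS arrays, 10 had 1 array set apart from the other 5 by more than Dixon's critical ratio at the 95% level on the log2 scale, where chance gives about 1 in 20. On NOD PreS Dbl replicate 1, Slc35e1 was at 60.9 (others 162.5 to 195.2), Slc37a1 at 14.4 (34.7 to 53.3), Slc25a23 at 34.7 (78.5 to 106.7) and Slc31a1 at 136.8 (71.5 to 94.3). That array had a 3' to 5' Gapdh ratio of 28.9, whose part in these values was not tested. NOD PreS Dbl replicate 2 had Slc39a4 at 1.6 (13.6 to 30.3), and NOD PreS TCR replicate 2 had Slc45a3 at 2.9 (17.3 to 29.6). In B10 PreS cells, TCR replicate 3 had Slc1a5 at 72.3 (193.9 to 275.4), TCR replicate 2 had Slc31a2 at 59.7 (41.2 to 48.1), Dbl replicate 1 had Slc29a1 at 377.6 (84.8 to 145.3) and Dbl replicate 3 had Slc25a5 at 2754.0 (3206.9 to 3939.3).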

How the results depend on the processing

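Of 87 calls of a member in a comparison, all kept their direction under every alternative run, 8 also kept the call and 79 lost it under at least 1. A call given above without a count of lost alternatives did not necessarily hold in all of them. Few arrays of a comparison share a hybridization day, so a call lost with the day block cannot be told from lost precision. Shares of all probesets called under each alternative were not counted, and causes were not tested. In NOD S- against PreS, 15 members were called, 8 with no filter, 0 with hybridization day as a block, 34 with array weights, and 4 to 21 with 1 array left out (6, 6 and 4 without NOD S- replicates 1, 2 and 3). In NOD S+ against PreS, 14 were called, 25 with MAS 5.0 scaling only, 9 with no filter, 0 with the day block, 35 with array weights, 23 with the 3' to 5' ratio as a covariate, 6 with PreS arrays of the same transgenes, and 7 to 19 with 1 array left out (7 and 8 without NOD S+ replicates 1 and 2). In B10 S- against PreS, 15 were called, 9 with no filter, 1 with the day block, 27 with array weights, 9 with PreS arrays of the same transgenes, and 8 to 15 with 1 array left out (8 without B10 S- replicate 2). In B10 S+ against PreS, 25 were called, 12 with the day block, 15 with PreS arrays of the same transgenes, and 15 to 23 with 1 array left out (15 without B10 S+ replicate 2).

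Between S- and S+, array weights gave 16 members in NOD in place of 0, and leaving out 1 array gave 0 to 1 (1 without NOD S+ replicate 3). In B10 the 1 member became 2 with signals under 16 set to 16, and 0 with no filter, a minimum of 64, gene means, the methods' t-test, the day block or only the arrays compared, and 0 to 1 with 1 array left out (1 only without B10 S+ replicate 1).

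Between the strains in S-, 4 members became 7 with signals under 16 set to 16, 2 with no filter, 2 with the day block, 25 with array weights, 8 with the ratio covariate, 8 with only the arrays compared, and 1 to 3 with 1 array left out (1, 1, 2, 2 and 1 without B10 S- replicates 1 and 2 and NOD S- replicates 1, 2 and 3). In S+, 4 became 2 with the day block, 23 with array weights, 1 with only the arrays compared, and 2 to 17 with 1 array left out (2 without B10 S+ replicate 2 or NOD S+ replicate 1 or 2, and 17 without NOD S+ replicate 3). In PreS, 9 became 3 with the day block, and 6 to 11 with 1 array left out. The strain differences, 0 each, became 1 (S+ against PreS), 9 (S- against PreS) and 5 (S- against S+) with array weights, and 0 to 1, 0 and 0 with 1 array left out. Leaving out together the 4 arrays of highest 3' to 5' ratio, chosen after seeing the data, gave 3 in NOD S+ against PreS, and 7 in S- and 2 in S+ between the strains.

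The replicate numbers did not pair the samples, since deviations of same-numbered samples correlated at a mean of 0.036 over 84 pairs (-0.32 to 0.63). With the replicate block the counts were 13 in NOD S-, 17 in NOD S+, 15 in B10 S- and 23 in B10 S+ against PreS, 0 between S- and S+ in both strains, 5, 4 and 11 between the strains in S-, S+ and PreS, and 0 for each strain difference. Signals near 32 are close to background and have the least certain sizes.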
